A study of Homo sapiens with 2 samples.

Results

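The 9 genes described here write, erase and read DNA methylation: the methyltransferases DNMT1, DNMT3A and DNMT3B, the methylation readers UHRF1, UHRF2 and MBD2, and the methylcytosine oxidases TET1, TET2 and TET3. They were chosen by name, with earlier results of these data known. Their values come from every probe set that the platform annotation gives to 1 gene alone. This gave 17 of the 34880 such probe sets, and all 9 genes were among the 17689 measured. RNA came from LNCaP, an androgen-responsive human prostate carcinoma line, and was hybridised to Affymetrix U133 Plus 2.0 arrays. Control cells were infected with a pLKO.1 lentivirus that carries no hairpin (empty vector), and knockdown cells with lentivirus carrying a hairpin against KDM4A, which removes methyl groups from lysine 9 and lysine 36 of histone H3. Both were harvested 3 days after infection. Each group had 1 array, from 1 cell line and with 1 hairpin construct, so no value has a replicate check and no test between groups could be made. The question was which of these transcripts differ when KDM4A is reduced.

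DNA methylation places a methyl group on the cytosine of CpG dinucleotides, where it is tied to stable silencing of promoters and repeats. DNMT3A and DNMT3B set new methylation, while DNMT1 copies it to the daughter strand after replication, guided by UHRF1, which binds hemimethylated CpG and also histone H3 methylated at lysine 9. TET enzymes oxidise methylcytosine using oxoglutarate and iron, as the KDM4 demethylases do, and the oxidised bases are diluted by replication or removed by base excision repair. MBD2 binds methylated CpG and brings in the NuRD complex, a histone deacetylase and nucleosome remodeller.

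Every value below is taken to be on the log2 scale and is a difference, the knockdown array minus the control array, after the authors' RMA normalisation. The deposited columns are centred on the mean of the 2 arrays, so a probe set's control value is its knockdown value with the sign turned, and no expression level or detection call can be read from them. The levels of the members against one another, and the presence of prostate markers in these cells, could therefore not be checked. Over all probe sets the differences between the quartiles ran from -0.18 to 0.20, the 18 hybridisation spike-in probe sets from -0.090 to 0.063, and the 7 for poly-A spike-ins from -0.13 to 0.40, a value farther from 0 than the mean of every member but UHRF1. Errors (± SD) come from the probe sets that read the same gene and say nothing of the spread between cultures. The hairpin's target, KDM4A, lay at -1.18 ± 0.40 (SD, 2 probe sets), which is 2.26-fold lower in the knockdown.

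None of the 9 genes differed 2-fold. Over all genes measured 2.60% did so in either direction, 1.44% lower and 1.16% higher, so a count of 0 among 9 genes is near this background. The largest differences were those of UHRF1 (-0.71), DNMT3A (-0.30 ± 0.15, SD, 3 probe sets) and, in the other direction, TET3 (0.32 ± 0.49, SD, 3 probe sets). With a 1.5-fold rule UHRF1 alone passed, 1 of 9 or 11.1%, where 8.67% of all genes passed in either direction and 4.38% were lower. The median of the 9 genes was -0.0096 and that of all genes 0.020. Their median distance from 0 was 0.15, beside 0.16 for all genes. Of the 9 genes 5 lay below 0, and of their 17 probe sets 11 did, beside 46.3% of all genes and 46.7% of all probe sets with 1 gene.

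**Figure D1:**
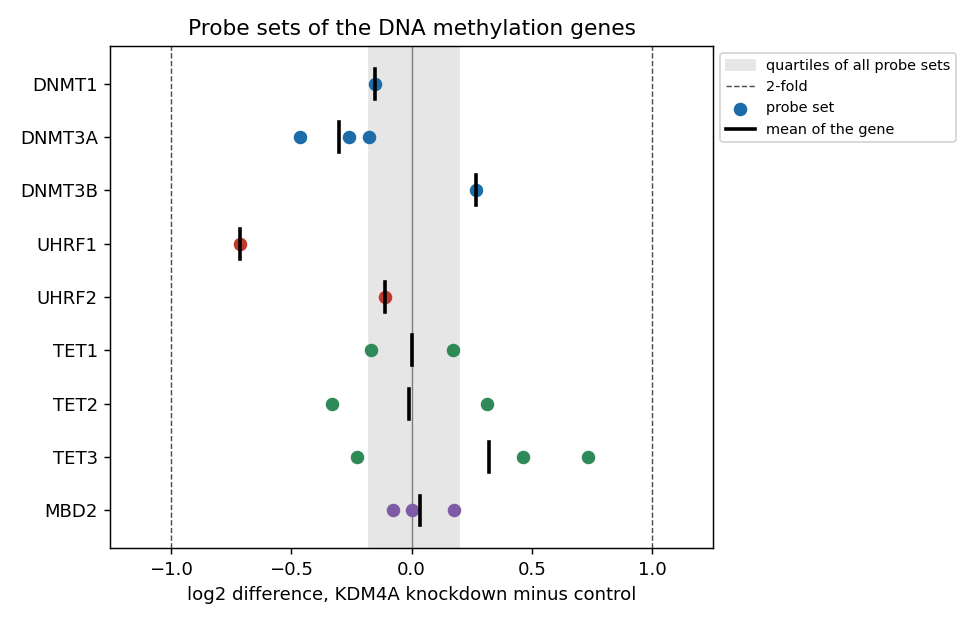
Log2 difference between the knockdown and the control array for each probe set (points) of the 9 genes, with the mean of each gene (black bars), the span between the quartiles of all probe sets (grey band) and the 2-fold lines (dashed). No point reaches a dashed line, UHRF1 stands farthest to the left at -0.71, and the probe sets of TET1, TET2, TET3 and MBD2 lie on both sides of 0.

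UHRF1 was the lowest of the 9 genes. It couples replication to methylation by recruiting DNMT1 to newly made DNA and also ubiquitinates histone H3. Its single probe set, 225655_at, had a centred value of 0.36 on the control array and -0.36 on the knockdown array. The difference of -0.71 is a 1.64-fold lower signal, and 2.95% of all genes lay lower. Among the 8745 genes with 1 probe set, 5.61% lay farther from 0. No second probe set of UHRF1 could be set beside it. UHRF2, its paralog, which also binds methylated DNA but does not replace UHRF1 in maintenance, had centred values of 0.055 and -0.055 in probe set 225610_at and a difference of -0.11. UHRF1 minus UHRF2 was -0.60. For 2 genes with 1 probe set each, the spread pooled over all genes (SD 0.33) gives such a gap an SD of 0.46, so the paralogs differed by more than 1 of these SDs and less than 2.

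DNMT1, the maintenance methyltransferase that UHRF1 recruits, differed little. Its only probe set, 201697_s_at, had centred values of 0.077 on the control and -0.077 on the knockdown array, a difference of -0.15 (1.11-fold lower), between the quartiles of all probe sets. UHRF1 minus DNMT1 was -0.56, again beside an SD of 0.46 for a gap.

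The de novo methyltransferases lay on opposite sides of 0. DNMT3A was the only member with several probe sets that all lay on 1 side, which held for 50.3% of the 8944 genes with 2 or more. Its centred knockdown values were -0.23 (244428_at), -0.13 (222640_at) and -0.088 (218457_s_at), mirrored by 0.23, 0.13 and 0.088 on the control array. The differences were thus -0.46, -0.26 and -0.18, and their mean of -0.30 is a 1.23-fold lower signal. Leaving out any of these probe sets gave means from -0.36 to -0.22. DNMT3B was measured by 220668_s_at alone, with centred values of -0.13 on the control and 0.13 on the knockdown array, and lay at 0.27 (1.20-fold higher). DNMT3A minus DNMT3B was -0.57, beside an SD of 0.38 for a gap between genes with 3 probe sets and 1.

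The TET oxidases had no common direction, and the probe sets of each went both ways. TET3 had the highest mean of the 9 genes and the widest spread. Its differences were 0.73 in 214754_at, 0.46 in 235542_at and -0.23 in 1554641_a_at, with centred knockdown values of 0.37, 0.23 and -0.11. The first is a 1.66-fold higher signal. It and the probe set of UHRF1 were the 2 of 17 past 1.5-fold (11.8%), where 11.9% of all probe sets with 1 gene did. The range of 0.96 between the probe sets of TET3 compares with a median range of 0.37 over the 2369 genes with 3 probe sets, of which 7.89% had a wider one. Leaving out 1554641_a_at gave a mean of 0.60, and leaving out 214754_at gave 0.12. Which exons or transcripts of TET3 each probe set reads is not given in the sources used here.

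TET2, an oxidase without the CXXC domain that the full-length forms of its paralogs carry, lay at -0.0096 ± 0.45 (SD, 2 probe sets). The mean near 0 came from opposite values, -0.33 in 1569385_s_at and 0.31 in 227624_at. TET1 lay at 0.0014 ± 0.24 (SD, 2 probe sets), from -0.17 in 228906_at and 0.17 in 214862_x_at, a probe set whose suffix marks that its probes may match other transcripts. The direction of both genes is thus unsettled. MBD2 lay at 0.034 ± 0.13 (SD, 3 probe sets). Its probe sets read -0.075, -5.7e-05 and 0.18, all of them between the quartiles of all probe sets.

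In order from lowest to highest the differences ran UHRF1, DNMT3A, DNMT1, UHRF2, TET2, TET1, MBD2, DNMT3B and TET3, over a span of 1.03. Of the 8 gaps between neighbours, that between UHRF1 and DNMT3A (0.41) narrowly exceeded the SD of the gap from probe set spread (0.38). The other gaps ran from 0.011 to 0.23 and lay within their SDs. Neighbours in a sorted list are close by construction, while these SDs are for genes taken without regard to value. The gaps therefore cannot tell whether UHRF1 stands apart. With 1 difference per gene, no likeness of pattern across samples could be measured.

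**Figure D2:**
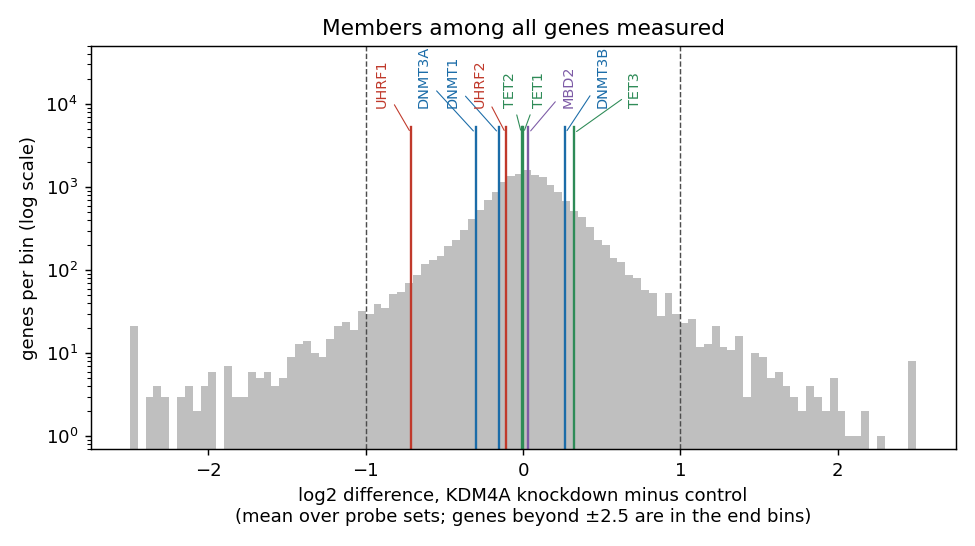
Number of genes (log scale) by log2 difference, knockdown minus control, as the mean over a gene's probe sets, for all 17689 genes (grey), with the 9 members as coloured lines and the 2-fold lines dashed. All members lie between the dashed lines, and 2.95% of genes lie to the left of UHRF1 at -0.71.

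The promoters of UHRF1, UHRF2, DNMT1 and TET3 are printed because these genes hold the lowest value, its paralog, its partner and the highest value. They are RefSeq windows (GRCh38.p14) of 300 bases, 250 before the annotated start and 50 after it, and all 9 genes had at least 1. The motifs of cell cycle promoters searched on both strands were the E2F forms TTCCCGC and TTGGCGC, the CCAAT box bound by NF-Y, and TTTGAA, the cell cycle homology region (CHR). Matches are in capitals, and none of the motifs overlapped in these windows. The UHRF1 window is that of the most upstream of 3 annotated starts, chr19:4909251-4909550 on the plus strand. The window of UHRF2 lies at chr9:6412949-6413248 (plus), that of DNMT1 at chr19:10194904-10195203 (minus) and that of TET3, for the upstream one of 2 starts, at chr2:73984660-73984959 (plus).
UHRF1: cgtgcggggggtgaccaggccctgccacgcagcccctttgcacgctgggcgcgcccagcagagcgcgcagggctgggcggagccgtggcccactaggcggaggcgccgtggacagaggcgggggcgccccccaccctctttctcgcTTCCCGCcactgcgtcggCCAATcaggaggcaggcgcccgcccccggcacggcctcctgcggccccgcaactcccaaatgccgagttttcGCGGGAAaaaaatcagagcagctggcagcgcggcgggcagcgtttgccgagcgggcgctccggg
UHRF2: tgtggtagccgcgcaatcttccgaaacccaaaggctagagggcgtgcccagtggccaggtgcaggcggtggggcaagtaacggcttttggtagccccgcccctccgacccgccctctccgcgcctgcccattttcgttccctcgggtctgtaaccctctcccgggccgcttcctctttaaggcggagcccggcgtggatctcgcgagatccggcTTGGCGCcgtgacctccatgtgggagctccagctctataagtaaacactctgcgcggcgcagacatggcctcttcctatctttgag
DNMT1: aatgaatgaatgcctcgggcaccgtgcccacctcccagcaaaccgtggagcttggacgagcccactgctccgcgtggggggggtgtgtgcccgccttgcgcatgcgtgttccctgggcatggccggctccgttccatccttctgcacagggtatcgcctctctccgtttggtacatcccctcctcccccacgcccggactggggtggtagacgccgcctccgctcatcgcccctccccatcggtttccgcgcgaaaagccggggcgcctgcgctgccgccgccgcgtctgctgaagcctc
TET3: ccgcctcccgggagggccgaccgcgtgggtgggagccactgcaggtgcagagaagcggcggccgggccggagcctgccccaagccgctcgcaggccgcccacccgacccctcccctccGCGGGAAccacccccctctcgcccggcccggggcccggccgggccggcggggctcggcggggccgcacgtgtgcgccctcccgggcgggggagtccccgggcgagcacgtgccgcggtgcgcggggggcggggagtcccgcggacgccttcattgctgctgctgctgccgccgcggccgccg

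The UHRF1 window held TTCCCGC on each strand, the matches beginning at -104 and -14 relative to the start, and a CCAAT box between them beginning at -86. UHRF2 held TTGGCGC once, TET3 held TTCCCGC once on the opposite strand, and DNMT1 held none of the motifs searched in this window. Other forms of the E2F motif were not searched, so DNMT1 cannot be said to lack one. In all, 3 of the 9 genes had either E2F form in at least 1 window, among 27058 genes of which 11.0% did. The CCAAT box was found for 4 members and 39.8% of all genes, and the CHR for 3 members and 18.2% of all genes. These counts per gene favour the members, which had 20 windows for 9 genes, against 34796 windows for 27058 genes. By window, 3 of the 20 held either E2F form, beside 9.24% of all windows. A CCAAT box was in 6 of the 20, beside 34.6%, and the CHR in 3 of the 20, beside 15.2%. A match describes the letters only, and the arrays do not tell which start was used. CpG dinucleotides, the substrate of these enzymes, numbered 36 in the UHRF1 window, 26 in that of UHRF2, 30 in that of DNMT1 and 45 in that of TET3, beside a median of 14 over 34796 windows. The only DNMT3B window read here had 3, the fewest among the members, and also held a CCAAT box. It describes that 1 annotated start and no other start of the gene.

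**Figure D3:**
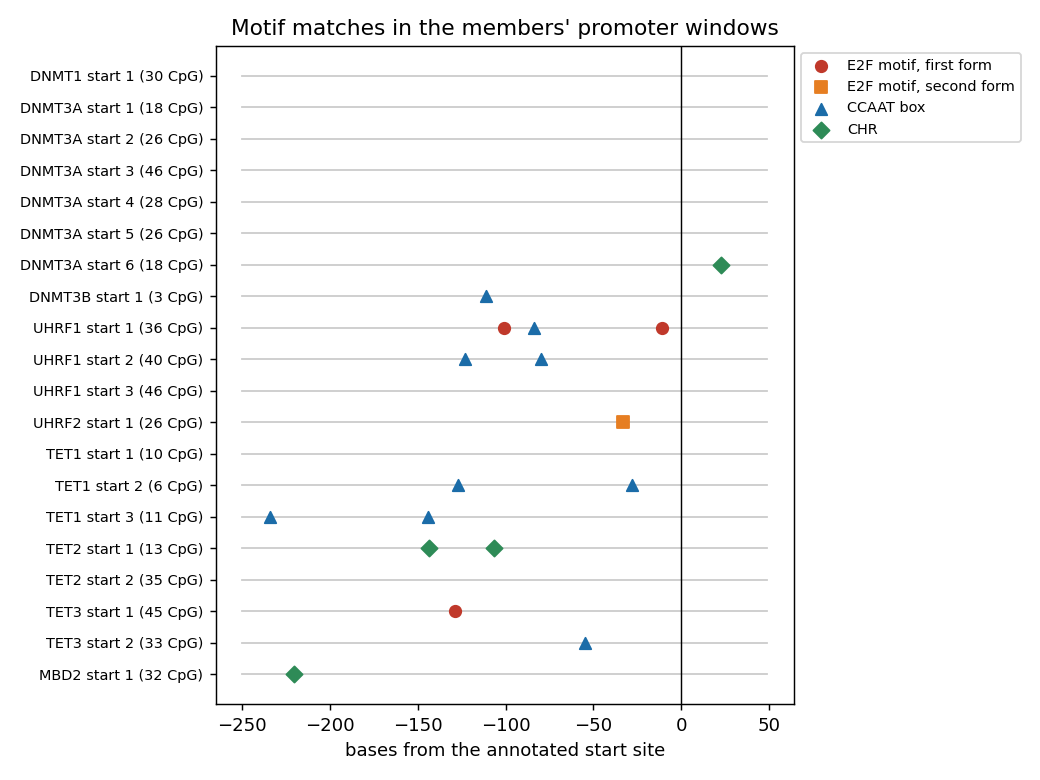
Motif matches (coloured symbols) by distance in bases from each annotated start of the 9 genes, 1 line per start, with the CpG count of each window in its label. The first start of UHRF1 is the only line with matches to E2F and CCAAT motifs together.

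Of 10 listed partners that act with DNMT1, DNMT3A and DNMT3B 9 were measured, with a median of -0.086. All 9 lay below 0, where 46.3% of all genes did. The list was chosen with earlier results of these data known, so its counts are a description and no test. Of the 9, 2 were at least 2-fold lower and none higher, where 1.44% of all genes were lower. CDCA7L lay at -1.35 and CDCA7 at -1.02, each from 1 probe set. CDCA7 brings the remodeller HELLS to chromatin, where it opens nucleosomal DNA for methylation, and CDCA7L is its paralog. HELLS lay at -0.75 ± 0.24 (SD, 4 probe sets), with every probe set between -0.99 and -0.50. These 3 genes lay below UHRF1. The other 6 ran from -0.21 to -0.0056, and all but TRIM28 lay between the quartiles of all genes (-0.14 and 0.18). Among them were TRIM28 (-0.21), which silences retroelements, and PCNA (-0.086), the replication clamp that DNMT1 binds. USP7, a deubiquitinase of UHRF1 and DNMT1, lay at -0.068 ± 0.18 (SD, 4 probe sets), with probe sets on both sides of 0.

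UHRF1, HELLS and CDCA7 are known to be made mainly in cycling cells, and genes of replication and mitosis were lower in the same comparison. All 24 measured genes of the replication list were below 0, with a median of -0.57, and UHRF1 lay above 10 of them and below 14. Of the 24, 7 were at least 2-fold lower, where 1.44% of all genes were. PCNA (-0.086) and LIG1 (-0.030), also genes of replication, were counted with the methyltransferase partners and are not among the 24. All 20 mitosis genes were below 0 and 14 at least 2-fold lower, with a median of -1.44, and 17 lay below UHRF1. The replication and mitosis lists were also chosen with earlier results of these data known, so their counts are a description only. The part of the cell cycle genes' difference in that of UHRF1 was not tested. In a bulk culture, fewer cycling cells and less RNA per cell cannot be told apart.

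Other methyl-CpG readers and MBD-family proteins, taken as 1 list, were split. Of 8 measured genes 4 lay below 0 and 4 above, with a median of -0.13. None was 2-fold apart, where 2.60% of all genes were. MBD4, a glycosylase that removes thymine from T:G mismatches left by deaminated methylcytosine, lay at -0.64 ± 0.36 (SD, 4 probe sets), all probe sets below 0. ZBTB4 and ZBTB38, zinc finger proteins that bind methylated CpG, lay at -0.56 ± 0.46 (SD, 2 probe sets) and -0.54 ± 0.57 (SD, 5 probe sets). The probe sets of ZBTB38 ran from -1.38 to 0.092. MBD3, the NuRD subunit that takes the place of MBD2 in separate complexes, lay at -0.35 ± 0.23 (SD, 3 probe sets), beside 0.034 for MBD2. The 13 NuRD subunits on the list had a median of -0.11 and none reached 1.5-fold, where 8.67% of all genes did. RBBP4, a histone chaperone, was the farthest from 0 at -0.57 ± 0.49 (SD, 6 probe sets), followed by HDAC1 (-0.30), RBBP7 (-0.24) and MTA1 (0.23 ± 0.023, SD, 2 probe sets).

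Genes that act with or after the TET enzymes showed no 2-fold difference among 19 measured, where 2.60% of all genes had one. Of the 19, 11 lay below 0, beside 46.3% of all genes, and their median was -0.053. TDG, the glycosylase that removes the formyl and carboxyl bases TET enzymes make, lay at -0.68 ± 0.11 (SD, 2 probe sets), with -0.76 and -0.60 in its probe sets. NEIL3, a glycosylase of oxidised bases, lay at -0.57. On the other side were PARP1, a sensor of strand breaks (0.55), and GADD45G (0.77), of a stress-induced family. Supply of the methyl donor S-adenosylmethionine had 1 gene at least 2-fold lower and 1 at least 2-fold higher among 11 measured, with a median of -0.0083. Over all genes 1.44% were 2-fold lower and 1.16% higher. CBS, which draws homocysteine out of the methionine cycle, lay at -1.22 ± 0.051 (SD, 3 probe sets), all between -1.28 and -1.19. A near-identical copy of it, CBSL, is annotated in GRCh38, and the probe sets may not tell them apart. GNMT, a methyltransferase that consumes the donor, lay at 1.21 from 1 probe set. MAT2B and MAT2A, subunits of the enzyme that makes the donor, lay at -0.72 ± 0.48 and -0.21 ± 0.28 (SD, 2 probe sets each).

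**Figure D4:**
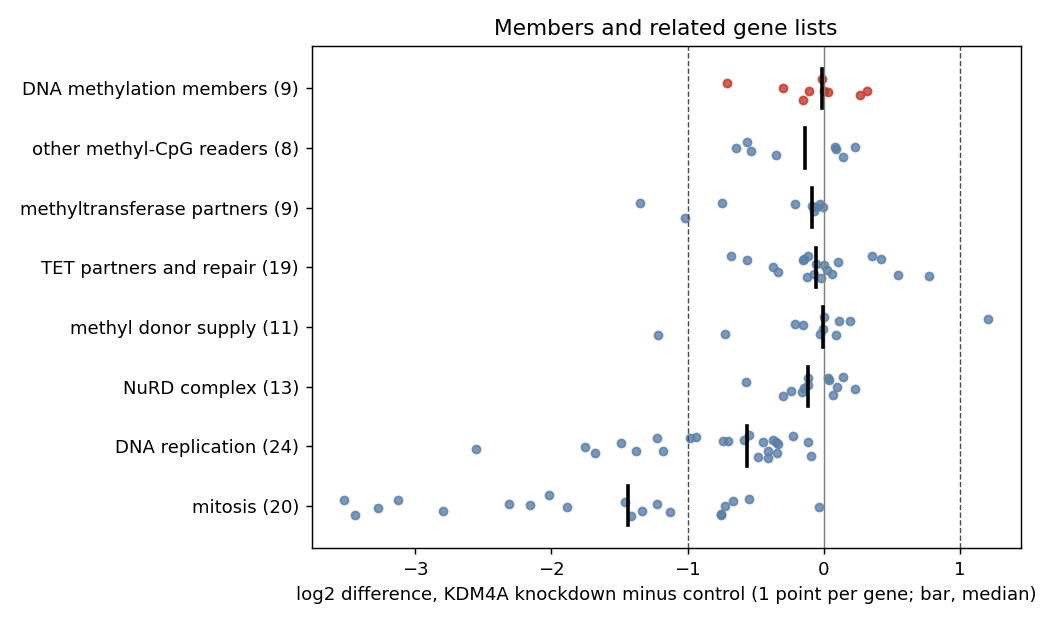
Log2 difference, knockdown minus control, of each gene (points) in the 9 members and 7 related lists, with list medians (black bars), the number measured in brackets and the 2-fold lines dashed. The members centre on 0, while all genes of the replication and mitosis lists lie to the left of 0.

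Markers of other cells that the culture could hold were measured in part. Leukocyte markers had a median of 0.012 over 3 genes (from -0.14 to 0.24), markers of the embryonic kidney line in which the virus was made 0.0091 over 4 (from -0.34 to 0.49), and basal markers -0.22 over 3 (from -0.22 to 0.41). Stromal markers had a median of 0.35 over 6 genes, with 5 above 0 and FAP below it at -0.29. The highest were ACTA2 at 2.14 ± 2.42 (SD, 2 probe sets), COL1A1 at 0.73 ± 0.76 (SD, 4 probe sets) and COL3A1 at 0.63 ± 0.68 (SD, 3 probe sets). Luminal prostate markers had a median of 0.25 over 6 genes, with 5 above 0 and TMPRSS2 below it at -0.76 ± 0.16 (SD, 4 probe sets). FOLH1 lay at 0.48, KRT8 at 0.41 and KLK2 at 0.39 ± 0.61 (SD, 4 probe sets). Because levels are lost, which of these markers are at background is unknown, and their part in the members' differences was not tested.

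**Figure D5:**
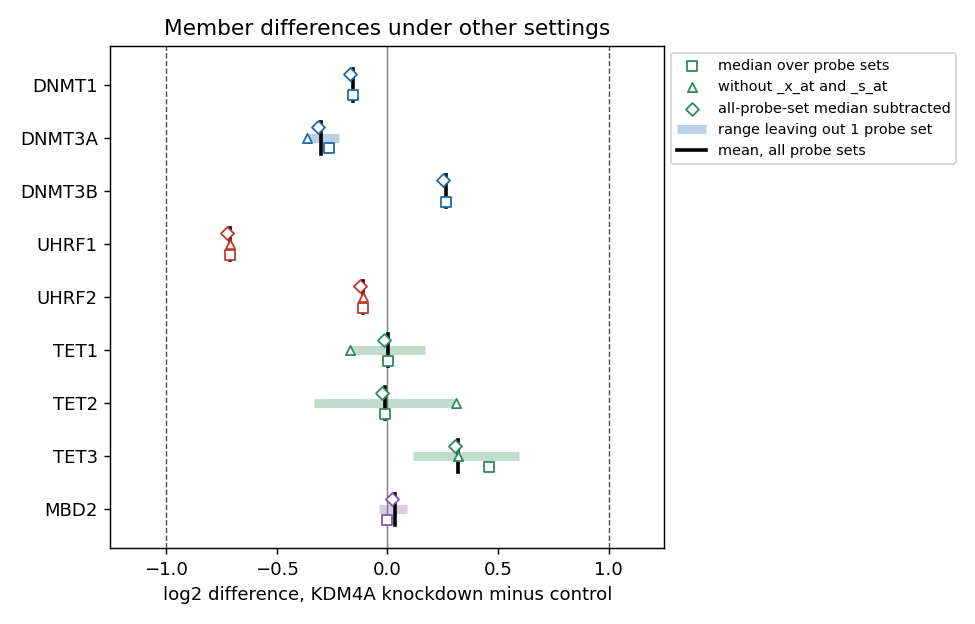
Log2 difference of each member as the mean over all probe sets (black bars) and under other settings (open symbols), with the range when 1 probe set of the gene is left out (coloured bands). DNMT3A and TET3 keep their side of 0 in every setting drawn, and the bands of TET1, TET2 and MBD2 cross it. UHRF1, DNMT1, UHRF2 and DNMT3B also keep their side, but each has 1 probe set and no band. The settings could hardly move them, so they cannot be called more stable than the others. DNMT1 and DNMT3B have no symbol without _x_at and _s_at probe sets.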

How the data were processed

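Total RNA from LNCaP cells was profiled on 1 Affymetrix array per group. The deposited values were taken to be on the log2 scale, and RMA without a version is named per the submitters' processing notes. The values of the 2 arrays sum to 0 in every row within 1.5e-06. For the log base and the centring step, nothing is stated in the labels; base 2, RMA's scale, was assumed for every fold. Signal levels are lost, so dim probe sets could not be left out, and precision is limited by the number of arrays.

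From these values the difference, knockdown minus control, was computed per probe set and as the mean per gene. Of 44672 probe sets 34880 named 1 gene in the platform annotation, 1619 named several, 8131 were unnamed here and 42 were controls. Entrez identifiers matched RefSeq (GRCh38.p14) for 34839 and changed no symbol. Genes were called by a size of 2-fold, with no test. The SD expected of a gap between 2 genes was the pooled SD between probe sets times the root of the summed reciprocals of their probe set numbers. The gene mean and call rule were run on simulated differences with noise of the same SD for every gene. Only the pooled SD was checked against a limit there, so the call rule itself was not tested. Computations used Python 3.11.15 with numpy 2.4.6 and pandas 2.3.3.

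The members and lists were chosen with earlier results of these data known. The rule for named genes took the 9 members, KDM4A, and from each list the 4 genes farthest from 0 and all at least 2-fold apart. The replication and mitosis genes are given as counts, and the leukocyte, kidney and basal markers as medians and ranges. PCNA, LIG1, USP7 and GSTP1 were added for their roles, after their values were seen. Alternatives were the median over probe sets, leaving out _x_at and _s_at probe sets, subtracting the median of all probe sets, dropping genes with 1 probe set, other size rules and leaving out each probe set.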

Additional observations from a re-analysis of the deposited data

How the results depend on the processing

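No member reached 2-fold under the median over probe sets, without _x_at and _s_at probe sets, with the median of all probe sets subtracted, among the 5 members with 2 or more probe sets, or by a 3-fold rule; by a 1.5-fold rule the count was 1 (UHRF1). Of 42 member values under other settings, 42 moved by less than the pooled SD between probe sets (0.33), and 7 changed sign, all in TET1, TET2 or MBD2. Many of these values could not move, or moved by an amount set in advance, so the count is no measure of stability. Mean and median are equal for a gene with 1 or 2 probe sets, and dropping genes with 1 probe set leaves the others unchanged. Subtracting the median shifts all members alike. The counts by the 3-fold rule and among the 5 members with 2 or more probe sets follow from the main count. Without _x_at and _s_at probe sets TET1 lay at -0.17 and TET2 at 0.31, and DNMT1, DNMT3B and MBD2 had no probe set left. The same setting took the members' median to -0.14 over 6 genes and that of other methyl-CpG readers and MBD-family proteins to -0.0015. It took the medians of germline genes to 0.53, replication to -0.70, luminal markers to -0.014 and stromal markers to 0.12. Among genes with 2 or more probe sets the medians were -0.41 for methyltransferase partners (2 genes), -0.15 for methyl donor supply, -0.64 for replication, -1.13 for mitosis, 0.11 for luminal and 0.63 for stromal markers. For the other 43 of 54 list medians the shift was under the pooled SD over the root of the list size. The causes were not tested, apart from the fewer genes and probe sets that these settings leave. No paired analysis was possible because each group has 1 array, and for the same reason no array could be left out.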

Other observations

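Genes linked elsewhere to silencing by promoter methylation were measured in the same arrays. Whether they are methylated or silent in these cells cannot be read from centred RNA values. Of 12 genes whose promoters are often methylated in prostate carcinoma 10 were measured. None of them was 1.5-fold apart, where 8.67% of all genes were. Their median was 0.019, with a range from -0.22 (MGMT, a repair enzyme for alkylated guanine) to 0.28 (RARRES1, a retinoid-induced gene). GSTP1, a glutathione transferase whose promoter is methylated in most prostate carcinomas, lay at 0.021 from 1 probe set. CCND2, a D-type cyclin, lay at 0.10 ± 0.047 (SD, 3 probe sets), and APC at -0.18 ± 0.22 (SD, 5 probe sets). Of the 7 listed germline genes 3 were measured. ASZ1, a protein of the piRNA pathway, lay at 1.22 from a single probe set, a 2.33-fold higher signal, while TEX101 lay at 0.17 and BRDT at -0.16. Whether the ASZ1 signal is above background cannot be read from centred values, and DNA methylation itself was not measured.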
